A study of Mus musculus with 41 samples.

Results

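H3K4me1 in resting cortical neurons that lack LSD1n was compared with H3K4me1 in resting LSD1n WT neurons. The members are all regions of the 2 deposited H3K4me1 lists at KCl 0 h on chromosomes 1 to 19: 37106 regions in LSD1n WT and 33155 in LSD1n KO, together 70261 of the 488881 regions and sites in the 27 lists of the series. A region that overlapped a region of the other list by at least 1 bp was called shared, and the others were called WT-only or KO-only. The series maps LSD1 binding and histone marks in mouse primary cortical neurons with and without LSD1n.

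Both groups are primary cortical neurons at 10 days in vitro, labelled LSD1n WT and LSD1n KO, with 0 h in a 55 mM KCl bath, and each group is 1 library. The labels do not say how many animals or cultures stand behind a library, how the deletion was made, or how pure the neurons were. Region lists hold no expression values, so neither the deletion nor the cell type could be checked in them. The same 2 genotypes at 1 h of KCl (44683 WT and 62758 KO regions) are used below as further libraries of the mark. Other lists at 0 h give the context of each region: H3K4me2, in LSD1n WT neurons alone; H4K20me1, H3K36me3 and RNA polymerase II (Pol II), in both genotypes; LSD1 sites found with an LSD1 antibody in wild type, LSD1n WT and LSD1n KO neurons; and Flag antibody sites in R26/LSD1n and R26/LSD1c neurons, which carry a tagged isoform. The LSD1 antibody list from LSD1n KO neurons has no KCl time in its labels. All 4 Pol II lists carry the opposite genotype in their internal names, so the groups follow the labels and results are given for each Pol II list or for sites found in both.

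H3K4me1 is the single methyl mark on lysine 4 of histone H3. It lies over enhancers, active or poised, and in the flanks of active promoters, where H3K4me2 and H3K4me3 are denser near the start of the gene. LSD1 (KDM1A) removes mono- and dimethylation from this lysine, working with CoREST and histone deacetylases. LSD1n is a neuronal splice form with a short extra exon, which the title of the series describes as an H4K20 demethylase that promotes elongation; LSD1c is the canonical form. H4K20me1 lies over bodies of transcribed genes, among other places, H3K36me3 over the bodies of elongating genes, and Pol II peaks chiefly at promoters.

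The KO list held fewer H3K4me1 regions than the WT list, by a small margin. The log2 ratio of KO to WT region numbers was -0.16 (-0.18 to -0.14), or 1.12 times as many regions in WT. Bracketed ranges are 95% intervals that cover counting error only. They are exact for shares and ratios, and a normal approximation for differences between shares or between log2 ratios. With 1 library per genotype no difference between genotypes was tested. The WT library had 23973912 tags and the KO library 22970480, a ratio of 1.04, and both were called at a threshold of 21 tags per peak. Of these tags 6.57% lay in regions in WT and 5.89% in KO. All 19 chromosomes had fewer regions in KO, with log2 ratios from -0.21 on chromosome 3 to -0.10 on chromosome 13, and 18 of the 19 intervals lay below 0. The margin was therefore spread over the genome, in libraries of near-equal depth.

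About every second region was found in 1 genotype alone. WT-only regions numbered 19657, or 53.0% of the WT list (52.5 to 53.5), and KO-only regions 15563, or 46.9% of the KO list (46.4 to 47.5). The shared class holds 17449 WT and 17592 KO regions. By length the overlap was smaller: of 36.7 Mb covered in WT and 31.6 Mb in KO, 14.1 Mb was covered in both, which is 38.4% of the WT and 44.6% of the KO length. Matching was mostly 1 to 1, since 16886 WT regions met a single KO region and 563 met 2 or more.

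Regions found in 1 genotype were narrow. The median width was 501 bp, the least width in these lists, for WT-only and for KO-only regions, against 959 bp for shared regions in WT and 845 bp in KO. Regions of exactly 501 bp made up 56.3% of WT-only and 60.3% of KO-only regions, and 21.5% of shared WT regions. Wide regions were nearly all shared: of the WT regions wider than 4 kb 457 were shared and 8 were WT-only, and all 354 KO regions of that width were shared. In the WT list the shared share was 25.3% at 501 bp, 42.1% at 502 to 800 bp, 59.0% at 801 to 1200 bp, 74.4% at 1201 to 2000 bp and 92.7% above 2 kb. The KO list gave 32.2%, 49.9%, 69.4%, 80.4% and 96.0% for the same widths, higher than WT at each width. A wide region has more room to touch a region of the other list, and so does a region set against the longer list; the part of either in these shares was not tested.

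**Figure D1:**
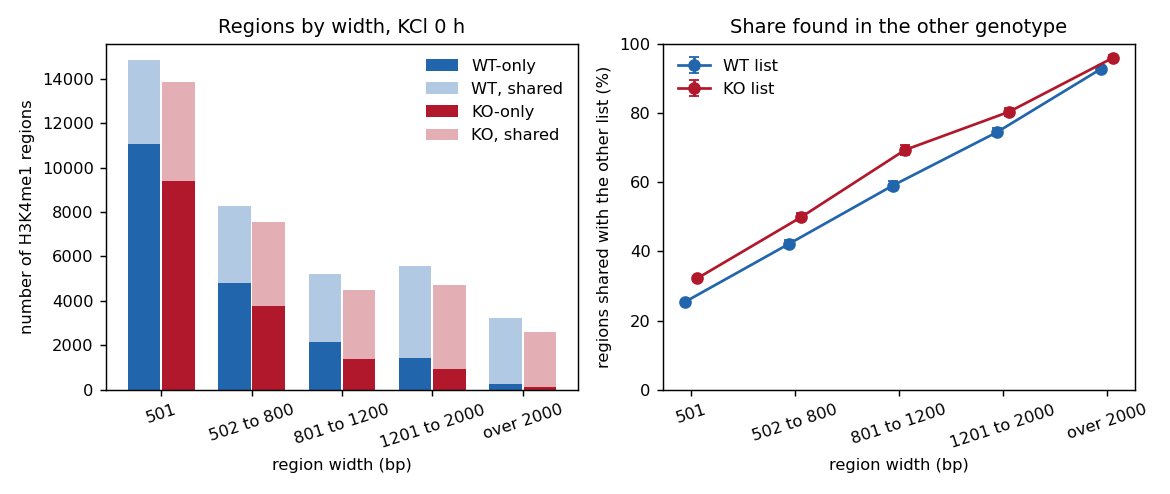
Left, number of H3K4me1 regions (y axis) by width in bp (x axis) in the WT (blue) and KO (red) lists at KCl 0 h, with regions found in 1 genotype in full colour and shared regions pale on top. Right, percent of regions of each list that are shared with the other list, with 95% exact intervals; the share climbs from 25.3% to 92.7% in WT and from 32.2% to 96.0% in KO.

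The shortfall in KO was larger among wide regions. The log2 ratio of KO to WT numbers was -0.10 (-0.13 to -0.07) for regions of 501 bp, -0.14 at 502 to 800 bp, -0.22 at 801 to 1200 bp, -0.24 at 1201 to 2000 bp, and -0.31 (-0.39 to -0.24) above 2 kb. Regions wider than 4 kb numbered 465 in WT and 354 in KO, a log2 ratio of -0.39 (-0.60 to -0.19). So the KO list was short of regions at every width, and most so among the widest. The regions that matched 1 to 1, 16040 pairs, had nearly the same typical width in both genotypes, with a median log2 width ratio of -0.01 (quartiles -0.59 and 0.37). The WT region was the wider one in 50.4% of pairs and the KO region in 40.4%, and 9.11% were equally wide. Pairs of a mean width above 2 kb leaned further, with the WT region wider in 57.3%. The centres of a pair lay a median of 321 bp apart.

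The line between shared and unshared regions was close for some members. Of the WT-only regions 18.8% had a KO region within 1 kb and 42.6% within 5 kb, with a median distance of 7.74 kb. For KO-only regions these values were 23.2%, 46.7% and 6.19 kb. On the other side of the line, 700 shared WT regions (4.01%) were overlapped over less than 10% of their length, and 15.4% were covered whole. WT-only and KO-only regions were mixed along the chromosomes. Among 758 windows of 1 Mb with at least 20 unshared regions, the median share that was WT-only was 56.3%, against 55.8% over all unshared regions, and from the 5th to the 95th percentile it ran from 38.7% to 72.4%. The windows with the lowest and highest shares, picked after their values were seen, were chr9 from 105 to 106 Mb, with 4 WT-only and 17 KO-only regions, and chr12 from 86 to 87 Mb, with 23 WT-only and 3 KO-only regions.

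H3K4me2 marks promoters and active enhancers, and it was more frequent at shared than at unshared regions. Of the shared WT regions 36.1% (35.4 to 36.8) overlapped H3K4me2, against 17.4% (16.9 to 17.9) of WT-only and 14.5% (13.9 to 15.0) of KO-only regions. Shared regions are wider, and at a width of 501 bp these shares were 23.4% (22.0 to 24.7), 14.1% (13.5 to 14.8) and 12.1% (11.5 to 12.8), so the gap narrowed at equal width. The difference between WT-only and KO-only regions was 2.92 percentage points (2.16 to 3.69, a normal approximation for counting error), and 2.55 points with both classes set to the same mix of widths. H3K4me2 was measured in WT neurons, so a KO-only region is here compared with a mark from the other genotype. H3K36me3 from WT was at 1.76% of WT-only, 1.66% of KO-only and 5.24% of shared regions, and the difference of 0.10 points between the unshared classes had an interval from -0.17 to 0.37. At this depth no difference in H3K36me3 between WT-only and KO-only regions was detectable.

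Pol II was more frequent at WT-only than at KO-only regions, whichever Pol II list was used. With the list labelled WT, 3.56% (3.31 to 3.83) of WT-only, 2.54% (2.30 to 2.80) of KO-only and 6.38% of shared regions held a Pol II site. With the list labelled KO these shares were 3.86%, 2.96% and 7.36%, and with the sites found in both lists 2.68%, 1.90% and 4.33%. The difference between WT-only and KO-only stayed above 0 in each case, at 1.02, 0.91 and 0.78 points, and had intervals above 0. With a Pol II site counted within 1 kb of the region the first difference was 2.72 points. The excess of shared over WT-only regions depended on width. For sites found in both lists, counted in the central 500 bp of each region, the shares were 2.34% (2.12 to 2.58) for shared, 2.13% (1.93 to 2.34) for WT-only and 1.57% (1.38 to 1.78) for KO-only regions. For these sites shared and WT-only regions could then not be separated by counting error. With the list labelled WT the central shares were 3.44% (3.17 to 3.72) for shared and 2.84% (2.62 to 3.09) for WT-only regions. With the list labelled KO they were 4.03% (3.75 to 4.34) and 3.08% (2.85 to 3.33). A smaller excess of shared regions thus remained with each single list.

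LSD1 antibody sites were more frequent at shared than at unshared regions and differed little between WT-only and KO-only regions. Sites of the LSD1 antibody in wild type neurons lay in 7.84% of WT-only regions and 7.84% of KO-only regions, against 15.8% of shared regions, and the difference between the unshared classes had an interval from -0.56 to 0.57 points. In the central 500 bp the shares were 6.44%, 6.60% and 9.52%, so a smaller excess of shared regions remained with the same window for all. With the antibody list of LSD1n WT neurons the shares by whole region were 4.87%, 4.55% and 9.39%, and WT-only minus KO-only was 0.32 points (-0.13 to 0.76). With that of LSD1n KO neurons they were 5.0%, 4.54% and 8.32%, and the difference was 0.46 points (0.01 to 0.91). Counted within 1 kb of the region, the differences for these lists were 1.71 and 1.63 points, and 0.21 points for the wild type list. In the central 500 bp they were smaller, at 0.14 and 0.16 points, and -0.16 points for the wild type list. With a common mix of widths they were 0.16 and 0.31 points, and -0.28 points for the wild type list. Flag-LSD1c sites were in 0.921% of WT-only and 0.572% of KO-only regions, that is in 181 and 89 regions, a difference of 0.35 points (0.17 to 0.53). Flag-LSD1n sites were in 35 WT-only (0.178%) and 32 KO-only regions (0.206%), with a difference of -0.03 points (-0.12 to 0.06), so at 802 sites no difference was detectable for the neuronal isoform.

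H4K20me1, the mark that the title of the series links to LSD1n, was found at similar shares of WT-only and KO-only regions. The WT list of this mark overlapped 17.0% of WT-only, 16.3% of KO-only and 25.6% of shared regions. The KO list of the mark, which covers more of the genome (92.9 Mb against 49.6 Mb), overlapped 22.9%, 21.8% and 30.7%. The difference between WT-only and KO-only was 0.70 points (-0.08 to 1.49) with the first and 1.06 points (0.19 to 1.94) with the second. With a common mix of widths these differences were smaller, at 0.34 and 0.71 points, and in the central 500 bp they were 0.50 and 1.00 points. Among regions with no region of the other genotype within 5 kb they were larger, at 2.23 and 3.03 points. Regions that H4K20me1 covered in the KO list alone made up 7.72% of WT-only, 7.43% of KO-only and 8.02% of shared regions. H3K4me1 regions under H4K20me1 of the KO list alone numbered 2918 in WT and 2590 in KO, a log2 ratio of -0.17 (-0.25 to -0.10). Regions with H4K20me1 in neither list gave -0.16 (-0.19 to -0.14). The places where H4K20me1 was called in KO alone thus had the same H3K4me1 ratio as places without the mark, within counting error.

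**Figure D2:**
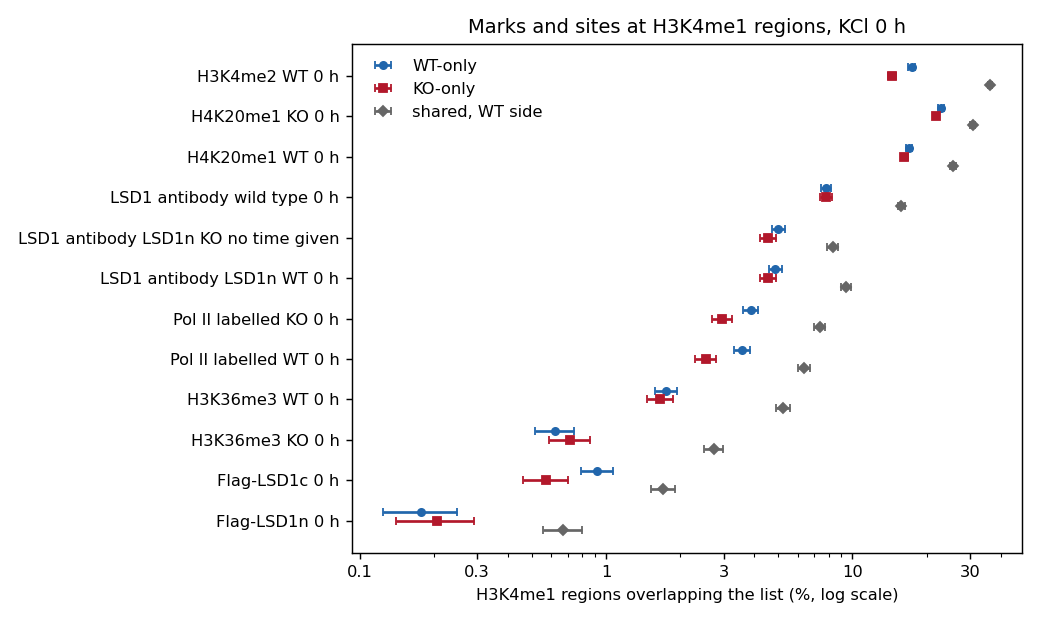
Percent of WT-only (blue circles), KO-only (red squares) and shared WT-side (grey diamonds) H3K4me1 regions that overlap each list by at least 1 bp (x axis, log scale), with 95% exact intervals. Shared regions, which are wider, are highest in every row by whole-region overlap, and WT-only regions lie above KO-only regions beyond the intervals for H3K4me2, Pol II and Flag-LSD1c.

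The same comparison can be read as a genotype ratio for each kind of region. By number the point values were lowest for regions at Pol II and at Flag-LSD1c sites. Regions that held a Pol II site of the list labelled WT numbered 1814 in WT and 1369 in KO, a log2 ratio of -0.41 (-0.51 to -0.30), or 1.33 times as many in WT. Regions without such a site gave -0.15 (-0.17 to -0.13). The difference of -0.26 (-0.36 to -0.15) is between regions of the same 2 libraries, and it was -0.19 with the list labelled KO and -0.27 with sites found in both lists. It was -0.20 among regions wider than 1200 bp, so it was also present within wide regions. Regions at H3K4me2, mapped in WT neurons alone, gave -0.21 (-0.25 to -0.17) and those without it -0.15 (-0.17 to -0.12). For regions at LSD1 antibody sites of wild type neurons the ratio was -0.17, and without them -0.16. With the antibody list of LSD1n WT neurons these ratios were -0.21 (-0.29 to -0.13) and -0.16 (-0.18 to -0.14). With that of LSD1n KO neurons they were -0.23 (-0.32 to -0.15) and -0.16 (-0.18 to -0.14). The intervals with and without a site overlapped for each antibody list. Regions at Flag-LSD1c sites gave -0.34 (-0.54 to -0.14, 479 against 378) by number and -0.09 by covered length. The interval by number holds the -0.16 of regions without a Flag-LSD1c site. Regions at Pol II sites of the list labelled KO gave -0.34 (-0.44 to -0.25) by number and -0.39 by covered length. Regions at Flag-LSD1n sites gave -0.06 (-0.40 to 0.28, 152 against 146), an interval too wide to place them.

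Regions were also split by H3K4me2 and by Pol II in either list, and those with both had the lowest ratio of the 4 kinds. H3K4me2 was mapped in WT neurons alone, and the LSD1 antibody sites used below come from wild type or LSD1n WT neurons. The part of this choice in the ratios was not tested. Regions with Pol II and H3K4me2 numbered 1976 in WT and 1517 in KO, a log2 ratio of -0.38 (-0.48 to -0.28). Those with H3K4me2 and no Pol II gave -0.17 (-0.22 to -0.12), those with Pol II and no H3K4me2 -0.19 (-0.37 to -0.002), and those with neither -0.14 (-0.17 to -0.12). The interval for Pol II without H3K4me2 overlaps that of every other kind, so it could not be placed among them. The last kind, away from both, made up 72.4% of the WT and 73.3% of the KO list. It numbered 26863 in WT and 24302 in KO, against 37106 and 33155 for all regions. So most of the shortfall by number was of that kind. Each kind except Pol II without H3K4me2 was also split by LSD1 antibody sites of wild type or LSD1n WT neurons. Regions with H3K4me2, such a site and no Pol II gave -0.23 (-0.32 to -0.13, 1913 against 1636). Regions with Pol II, H3K4me2 and such a site gave -0.45 (-0.59 to -0.31). They are a part of all regions with Pol II and H3K4me2, so these ratios are not independent. The remaining regions of that kind were not counted apart. Regions with an LSD1 antibody site and neither Pol II nor H3K4me2 were as many in KO as in WT, 2282 against 2264, a log2 ratio of 0.01 (-0.07 to 0.10). Regions with none of the 3 gave -0.16 (-0.19 to -0.13).

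**Figure D3:**
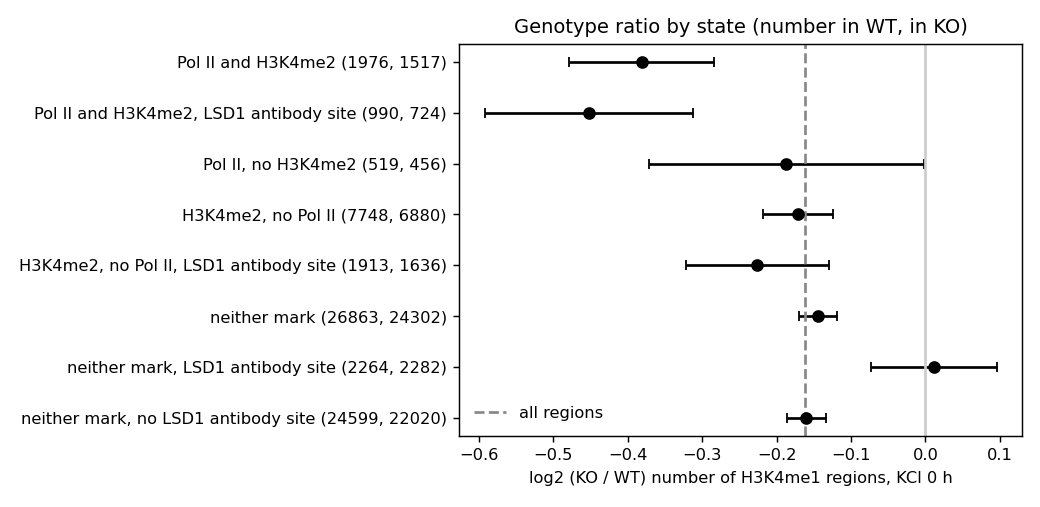
Log2 ratio of KO to WT numbers of H3K4me1 regions at KCl 0 h (x axis) for regions grouped by Pol II, H3K4me2 and LSD1 antibody sites, with 95% exact intervals; the numbers in WT and in KO stand beside each name and the dashed line is the ratio for all regions (-0.16). Regions with Pol II and H3K4me2 lie left of the line (-0.38), and regions with an LSD1 antibody site but neither mark lie at 0.01.

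Seen from the sites, H3K4me1 flanked Pol II in both genotypes, with a lower shoulder in KO. Of the 9391 Pol II sites found in both lists 13.7% (13.0 to 14.4) overlapped an H3K4me1 region in WT and 10.3% (9.71 to 11.0) in KO, and within 2 kb these shares were 65.1% and 56.7%. The site centre lay inside a region in 11.2% of cases in WT and 8.34% in KO. At 1 kb from the centre, averaged over both sides, the shares were 20% and 16.2%, and at 5 kb they were 3.98% and 3.60%. The WT value was thus 1.34 times the KO value at the centre, 1.24 times at 1 kb and 1.10 times at 5 kb. The dip at the centre and the shoulders at 1 kb were present in both libraries, and the gap between genotypes was widest, as a ratio, at the centre.

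Flag-LSD1c sites showed the same dip. H3K4me1 covered their centre in 10.1% of 3826 sites in WT and 8.18% in KO, and at 1 kb it covered 20% and 15.9%. LSD1 antibody sites of wild type neurons had the mark over the site itself, with 16.9% in WT and 15.1% in KO at the centre and 13.2% and 11.3% at 1 kb. H3K4me2 regions, mapped in WT neurons alone, divided the same way. Where they held no Pol II site, H3K4me1 covered the centre in 40.9% (WT) and 38.0% (KO), and where they held one, in 15.7% and 12%. Of H3K4me2 regions with Pol II 54.0% (53.0 to 55.0) overlapped H3K4me1 in WT and 45.0% (44.0 to 46.0) in KO, and of those without Pol II 55.2% (54.0 to 56.4) and 51.6% (50.4 to 52.8). Flag-LSD1n sites, 802 in number, overlapped H3K4me1 in 20.4% in WT and 20.2% in KO.

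**Figure D4:**
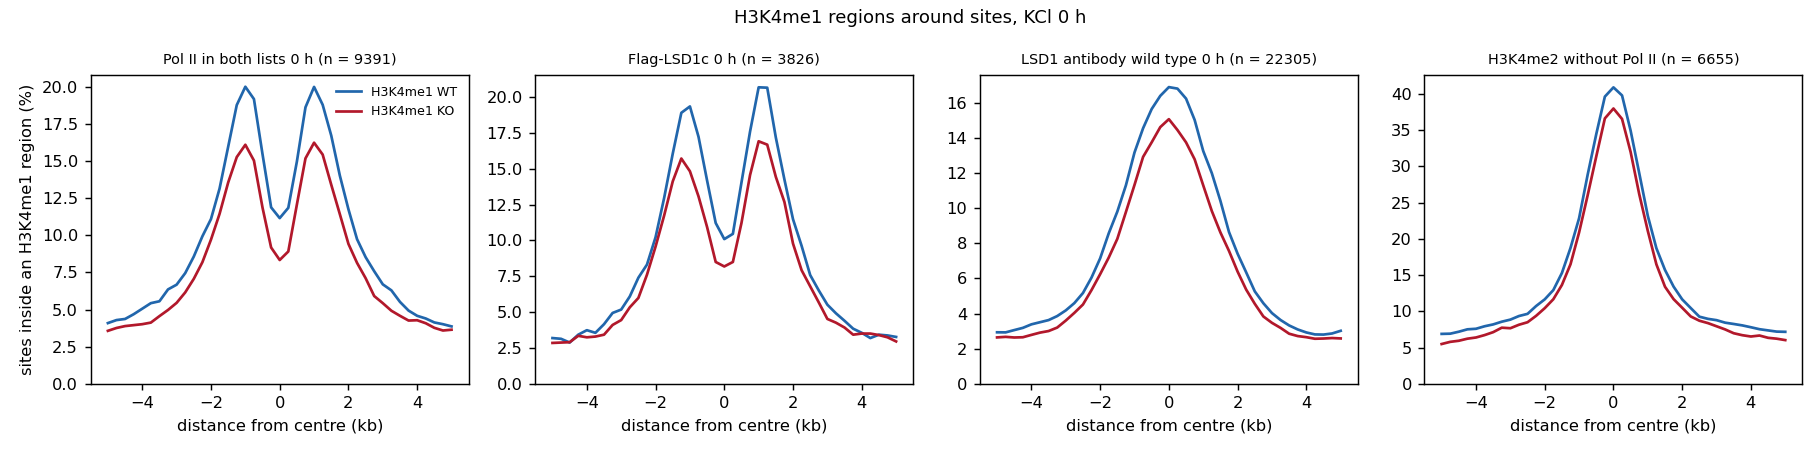
Percent of sites whose position at a given distance from the centre (x axis, kb) lies inside an H3K4me1 region at KCl 0 h (y axis, separate scale in each panel), in WT (blue) and KO (red), for Pol II sites found in both lists, Flag-LSD1c sites, LSD1 antibody sites of wild type neurons and H3K4me2 regions without Pol II. Pol II and Flag-LSD1c sites have a dip at the centre between shoulders near 1 kb, and the other panels have a single peak at the centre.

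The libraries at 1 h of KCl give a second look at the same regions with the same antibody. They are not equal in depth: 23440511 tags and a threshold of 21 in WT, 34859557 tags and a threshold of 26 in KO, and the log2 ratio of KO to WT numbers at 1 h is 0.49, opposite to that at 0 h. The KO library at 1 h also has no region on chromosome Y, where the other 3 H3K4me1 libraries have 22 to 29, and 185 on X, where they have 58 to 86. Of all WT regions at 0 h 62.8% were called at 1 h in WT and 74.4% in KO, and of all KO regions 61.6% and 78.1%. WT-only regions were called at 1 h in 46.3% (45.6 to 47.0) of cases in WT and in 58.8% (58.1 to 59.4) in KO. KO-only regions were called in 39.0% (38.2 to 39.7) in WT and in 62.6% (61.9 to 63.4) in KO. So most regions that the KO list lacked at rest were called in KO neurons at 1 h, and more of the KO-only regions were. Shared regions were called in 81.4% and 92.1%.

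Over all unshared regions, calls at 1 h leaned toward the genotype of the call at rest, within this depth gap, but not at every kind of site. Of WT-only regions 2407 were called at 1 h in WT alone and 4853 in KO alone, and of KO-only regions 1195 and 4878. The odds of being called in WT alone rather than KO alone were 2.02 times as high for WT-only as for KO-only regions. This odds ratio was 1.65 at 501 bp, 2.22 at 502 to 800 bp, 4.07 at 801 to 1200 bp and 5.30 at 1201 to 2000 bp, and 2.06 with 1 h lists of equal length. At H3K4me2 regions it was 1.34. At LSD1 antibody sites it was 1.60 for the wild type list, 1.17 for the LSD1n WT list and 1.00 for the LSD1n KO list. At Pol II sites it was 1.52 for the list labelled WT, 1.24 for that labelled KO and 1.35 for sites in both. At H4K20me1 it was 1.63 for the WT list and 1.50 for the KO list. At Flag-LSD1c sites it was 3.55, from 92 regions. At Flag-LSD1n sites it was 0.42, from 23 regions, with counts of 5 and 8 WT-only and 6 and 4 KO-only regions. No intervals were computed for these odds ratios, so small sets such as the Flag-LSD1n regions cannot be placed. The other regions were called in both 1 h lists (34.1% of WT-only and 31.3% of KO-only) or in neither (29.0% and 29.7%). Of WT-only regions called in both 1 h lists 28.3% held H3K4me2, and of those called in neither 7.26%. For KO-only regions these shares were 26.7% and 5.28%. When the 1 h lists were cut to their widest regions, to the length of the 0 h list of their genotype, the difference for WT-only regions turned: the share called in WT minus the share called in KO went from -12.4 to 1.13 percentage points. For KO-only regions it went from -23.7 to -10.8 points and kept its direction.

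**Figure D5:**
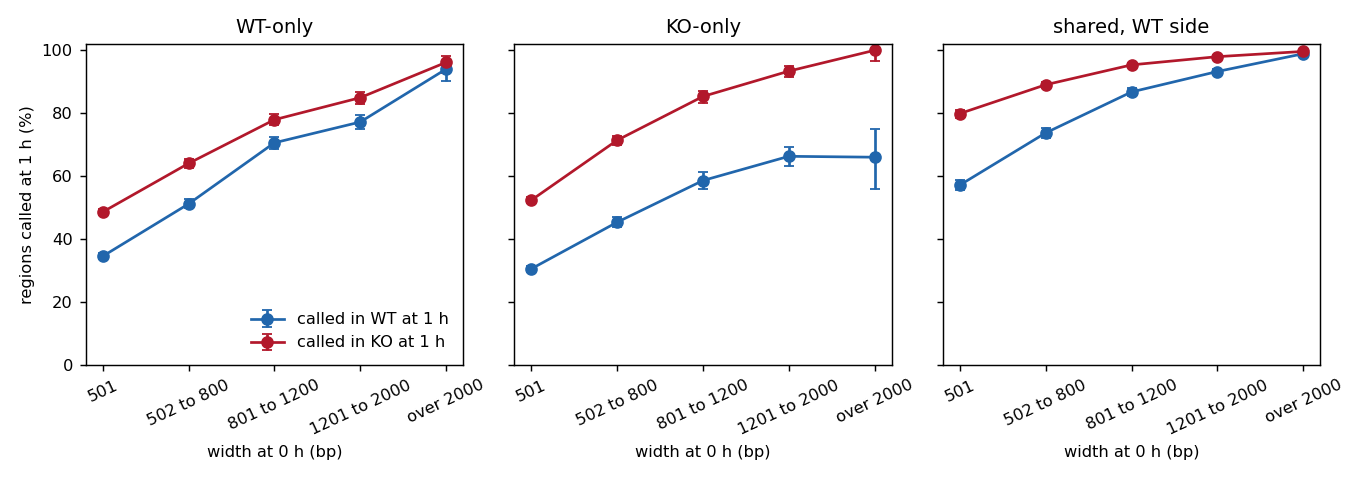
Percent of WT-only, KO-only and shared WT-side H3K4me1 regions of KCl 0 h that were called at 1 h in WT (blue) or KO (red), by their width at 0 h in bp (x axis), with 95% exact intervals. The KO library at 1 h is the deeper one and lies higher in each panel; over all widths the gap is widest for KO-only regions.

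Over all 4 H3K4me1 lists the regions merged into 84023 loci. Of these 15415 were called in every list, 1672 in both WT lists and no KO list, and 3389 in both KO lists and no WT list. Crossed patterns were also common: 3278 loci were in WT at 0 h and KO at 1 h alone, and 728 in KO at 0 h and WT at 1 h alone. Loci in both genotypes at 0 h and in neither at 1 h numbered 482. Together 5061 loci followed genotype across both times, and 4006 followed a crossed pattern. Of these, 3389 of the 5061 and 3278 of the 4006 involve the longer KO list at 1 h, so the counts are not set against equal lists. At 1 h the ratio of regions with a Pol II site was again below that of regions without, by -0.32 (-0.39 to -0.24) with the list labelled WT at 0 h. At 1 h the log2 ratio was 0.17 (0.10 to 0.24) for regions with Pol II and H3K4me2, 0.13 (0.09 to 0.17) for H3K4me2 without Pol II, 0.36 (0.22 to 0.50) for Pol II without H3K4me2 and 0.61 (0.59 to 0.63) for neither. All 3 kinds with a mark or Pol II thus lay below the regions with neither, and among H3K4me2 regions those with Pol II did not have the lower ratio that they had at 0 h. Regions with an LSD1 antibody site and neither mark had a ratio of 0.60 at 1 h, near the 0.61 of regions with none of the 3, where at 0 h their ratios were 0.01 and -0.16.

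Single regions show these patterns, with positions in mm9 counted from 1. The widest WT-only region, chr8:15001406-15006522, is 5.12 kb wide and lay 4.43 kb from the nearest KO region. At 1 h it was covered whole in WT and over 53.3% in KO. The widest WT-only region that was called again at 1 h in WT and not in KO was chr10:82599426-82602546, 3.12 kb wide, of which 31.3% was covered at 1 h. A WT-only region of 4.62 kb at chr11:116193554-116198170 held 1 Pol II site in each Pol II list, 1 LSD1 antibody site of wild type neurons and H3K4me2 over 25.9% of its length. In KO neurons 60.2% of it was called at 1 h. Another of 4.50 kb, chr2:4324754-4329250, lay within H4K20me1 over 93.6% of its length in WT and 100% in KO.

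The widest KO-only region, chr9:29882561-29886077, is 3.52 kb wide. It was called over 48.5% of its length in KO at 1 h and not in WT at 1 h, and it overlapped none of the other marks or sites at 0 h. A KO-only region of 3.18 kb, chr12:30239571-30242749, followed the same pattern at 1 h with 56.8% in KO, and H4K20me1 covered 45.0% of it in WT and 98.4% in KO. At chr19:4925852-4928844 a KO-only region of 2.99 kb held H3K4me2 over 61.1%, 1 Pol II site in each list and 1 LSD1 antibody site in each of the 3 antibody lists. It lay 0.019 kb from a WT region, so its place in the KO-only class rests on that gap. The widest shared region was chr11:3028680-3099974, 71.3 kb wide. H3K4me2 and both H4K20me1 lists covered it whole and H3K36me3 over 99.3%, and it held no Pol II, LSD1 or Flag site. All the histone marks covered it alike and the headers name no control library. Whether it is enriched for H3K4me1 as such was not tested. The next widest shared region, chr3:88022016-88038058, is 16.0 kb wide and was covered over 83.0% in KO, with H4K20me1 over 60.3% in WT and 83.0% in KO. Genes near these regions are not named, as no annotation of mm9 was used here.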

How the data were processed

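Chromatin was immunoprecipitated and sequenced, and the authors deposited lists of region positions (start and end in bp, mm9). Bowtie and HOMER were used, per the submitters' processing notes. Per the file headers, histone regions were built from 500 bp peaks, stitched at a least distance of 1250 bp. Pol II, LSD1 and Flag sites were called at a peak size of 200 bp and hold 4-fold the tags of their local 10 kb. Both used a false discovery rate of 0.001, and the headers name no control library. Depth was read from the headers. From the positions, overlaps, widths, distances and ratios were computed in Python 3.11.15 (numpy 2.4.6, scipy 1.17.1, matplotlib 3.10.9). Shares have Clopper-Pearson intervals and ratios exact conditional Poisson intervals. Differences between shares or between log2 ratios have intervals from a normal approximation. Overlap functions were tested on simulated lists. The members and lists were chosen with earlier results of these data known. Regions named are the 3 widest of each class, the 3 widest that their own genotype alone called again at 1 h, and the 2 widest with H3K4me2, an LSD1 antibody site or H4K20me1 of their own genotype; regions called with all 8 antibody targets and chromosome 18 were left out of this choice, and the text gives some of them. Alternatives were other overlap rules, merging, covered length, equal list lengths, a common width mix and leaving out regions of all 8 targets. Planned lists of genes and cell type markers were not run, since no mm9 annotation was used.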

Additional observations from a re-analysis of the deposited data

Results flagged for a closer look

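The genotype ratio of H3K4me1 region numbers had opposite signs at the 2 time points: the log2 ratio of KO to WT was -0.16 at 0 h and 0.49 at 1 h. The difference between the time points was not tested, and the KO library at 1 h has 1.49 times the tags of WT.

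Regions outside chromosomes 1 to 19 were not part of the comparison. The WT list at 0 h had 98 of them and the KO list 89. On chromosome X there were 70 in WT and 58 in KO, and on chromosome Y 26 and 29. At 1 h the WT list had 22 regions on Y and the KO list 0.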

How the results depend on the processing

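The limits are 1 library per genotype, positions without heights, and a width floor of 501 bp that holds most unshared regions. No paired analysis was possible because each group holds 1 library and no result comes from a test. The log2 ratio of region numbers (-0.16) was -0.12 with regions within 5 kb merged, -0.22 by covered length and -0.22 for regions wider than the pooled median of 651 bp. The shared share of WT regions (47.0%) and of KO regions (53.1%) was 29.5% and 35.7% when 50% of a region had to overlap, 57.0% and 63.9% within 1 kb, 49.5% and 50.1% between lists cut to equal length by width, and 52.2% and 57.3% after merging. For WT-only regions the share called at 1 h in WT minus that in KO (-12.4 points) was -11.1 at an overlap of 50%, -11.1 for regions with no KO region within 5 kb, -3.02 with 1 h lists of equal length, and 1.13 with each 1 h list as long as the 0 h list of its genotype; this reversal comes with fewer 1 h regions, and the cause was not tested further. For KO-only regions (-23.7) these values were -21.2, -25.8, -14.9 and -10.8. The difference in log2 ratio between regions with and without Pol II (-0.26) ran from -0.28 to -0.19 over 6 alternatives chosen after seeing the data. Leaving out regions of all 8 targets (61 in WT, 69 in KO) moved none of these results beyond its interval. The differences between WT-only and KO-only in marks and sites had 65 alternative values. Of these, 55 stayed within the interval of the reported value and 10 moved beyond it. Those for Pol II, LSD1n WT and LSD1n KO antibody and Flag-LSD1c sites were larger with sites counted within 1 kb. Those for H3K4me2 and H4K20me1 were larger away from the other genotype. The difference for H3K36me3 of KO moved further below 0 within 1 kb, from -0.09 to -0.28 points, with the higher share in KO-only regions. For H3K4me2, Pol II and Flag-LSD1c none changed sign.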
